A study of Ovis aries with 10 samples.

Results

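The subject of this account is the nuclear-encoded subunits of the mitochondrial respiratory chain and of ATP synthase in the adrenal gland of the sheep fetus. They were chosen by gene name, with earlier results of these data known. The name pattern takes the symbols of the NDUFA, NDUFB, NDUFC, NDUFS and NDUFV series, SDHA to SDHD, the UQCR series, the COX4 to COX8 series, the ATP5 series and CYCS. The pattern found 55 of the 19316 rows of the authors' deposited table of differential expression, each symbol with a single row. By complex these were 25 genes of complex I, 3 of complex II, 5 of complex III, 10 of complex IV and 12 of ATP synthase. CYCS, the gene of cytochrome c, had no row under that symbol. The sheep reference gene table lists 21 further names that the pattern takes and that had no row either. Among them are SDHD, ATP5F1A, ATP5F1C and UQCRH, and they are not analysed here. Of COX and UQCR names that fit the pattern, the reference table lists only COX5A and UQCRH. Other such names without a row, among them UQCRFS1, COX7B and COX8A, are therefore not in that count. The sets of complexes III and IV are thus partial. Of the 19316 rows, 13881 carry a symbol and 5435 a transcript ID instead. A gene without a row by name may be among the latter. Measured is therefore said here of a gene with a row under its symbol. Counts of measured genes by complex cover the name pattern only.

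RNA was sequenced from whole adrenal glands of fetuses at 102 days of gestation. The endotoxin group, 5 libraries (3 female, 2 male), had been injected with endotoxin, the lipopolysaccharide of Gram-negative bacteria. The control group, 5 libraries (3 female, 2 male), had been injected with saline. The labels give neither dose nor the time between injection and sampling, and do not state that each library is a separate fetus, so the p-values measure the spread between these libraries.

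The respiratory chain passes electrons from NADH and succinate to oxygen and uses the energy to pump protons across the inner mitochondrial membrane. Complex I oxidises NADH, complex II oxidises succinate as a step of the citric acid cycle, complex III passes the electrons on to cytochrome c and complex IV gives them to oxygen. ATP synthase lets the protons flow back and makes ATP. All except complex II mix subunits of the nuclear and of the mitochondrial genome. In the adrenal cortex the same membrane also carries the mitochondrial steps of cortisol synthesis, which draw electrons from NADPH through ferredoxin reductase (FDXR) and ferredoxin (FDX1).

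The authors' deposited table gives each gene a mean in TPM (transcripts per 1000000, so that lengths of transcripts and sizes of libraries are accounted for) for a group A and a group B. A was read as control and B as endotoxin, from the selection rule and the series title. As a check, 16 genes were at least 8-fold higher and 3 at least 8-fold lower with endotoxin in the TPM table whose columns carry the labels, and the authors' deposited table listed 19 such rises and 3 such falls in B. The table whose columns are single libraries has Ensembl gene IDs with the prefix of cattle (ENSBTAG), which no source used here pairs with symbols, so no subunit has a value for each library and no SD can be given. Many small subunits have processed pseudogenes in mammalian genomes, and how reads were shared among such copies is not given in the sources used here. The error printed is the standard error (SE) of the authors' count model. Fold changes are log2 values of that model, endotoxin over control. A sign said to be by TPM is that of the log2 ratio of the group means after 1 TPM was added to each, a second measure in the same table. Library totals were 14596101 to 17699521 estimated counts with endotoxin and 12494386 to 18324516 in controls.

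None of the 55 subunits passed an adjusted p of 0.05 in the authors' deposited table, whose Wald test was adjusted over all rows. Of all 19236 rows with a p-value 1.72% passed, 1.29% higher and 0.426% lower with endotoxin, so a count of 0 among 55 is close to that background. At an unadjusted p under 0.05 the authors' deposited table had 3 subunits higher with endotoxin (SDHA, NDUFV3 and NDUFS3) and 0 lower, against 7.58% and 5.35% of all rows. In the authors' deposited table the smallest adjusted p of any subunit was 0.239, for SDHA. No other tool could be run on the named genes.

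The estimates were small and mostly on one side of 0. The authors' deposited table gave 48 of the 55 log2 fold changes above 0, with a median of 0.14, while 50.9% of all rows with a p were above 0, with a median of 0.0071. Rows of at least 10 TPM, a level that 53 of the subunits also reach, had 61.2% above 0 and a median of 0.062. For rows of at least 1 TPM the share was 51.7%, so it rose with level. The rows of at least 10 TPM still lay lower than the subunits, with a median mean of 28.2 TPM against 175 TPM. Rows matched to the level of the subunits were not compared. The subunits come from the same libraries, so their signs are not independent, and the share above 0 was not tested. In 34 of the 55 the fold change was smaller than its own SE. The 95% interval, from the SE and a normal distribution, lay within a 2-fold change in either direction for 52 subunits and within a 1.5-fold change for 38. The 3 with wider intervals, COX6A2, COX6B2 and COX8C, are complex IV isoforms. A change of 2-fold or more was therefore outside the interval of the other 52 subunits. The interval held 0 for a different set of 52, all except SDHA, NDUFV3 and NDUFS3.

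**Figure D1:**
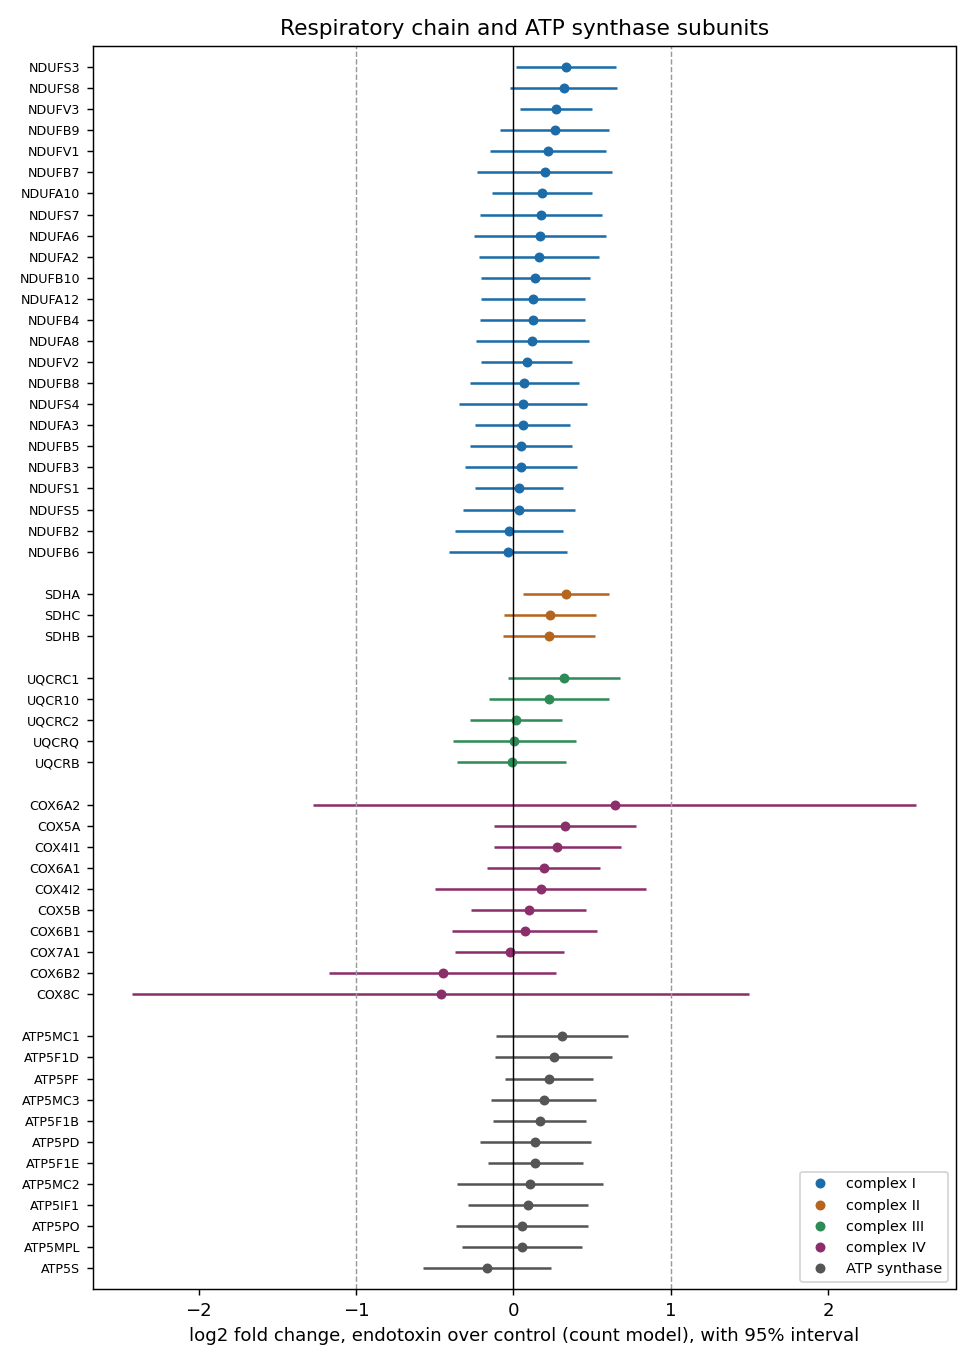
Log2 fold change of 54 of the 55 subunits, endotoxin over control, in the authors' count model (points) with its 95% interval (lines), by complex and in falling order; dashed lines mark a 2-fold change. All intervals shown cross 0 except those of SDHA, NDUFV3 and NDUFS3, and the widest belong to COX6A2 and COX8C.

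The subunits spanned a wide range of levels. Their means in the authors' deposited table added up to 26913 TPM with endotoxin and 26234 TPM in controls, or 2.69% and 2.62% of the table's total. ATP synthase held the largest part, 10437 TPM with endotoxin and 10195 TPM in controls, and complex II the smallest, 336 and 299.9 TPM. These sums cover 12 and 3 measured genes, and ATP5F1E alone had 4965 TPM with endotoxin and 4939 TPM in controls. Single subunits differed far more from each other than the groups did. Over both groups the mean was highest for ATP5F1E, at 4952 TPM, and lowest for COX6A2, at 1.52 TPM, among the authors' deposited table's means.

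**Figure D2:**
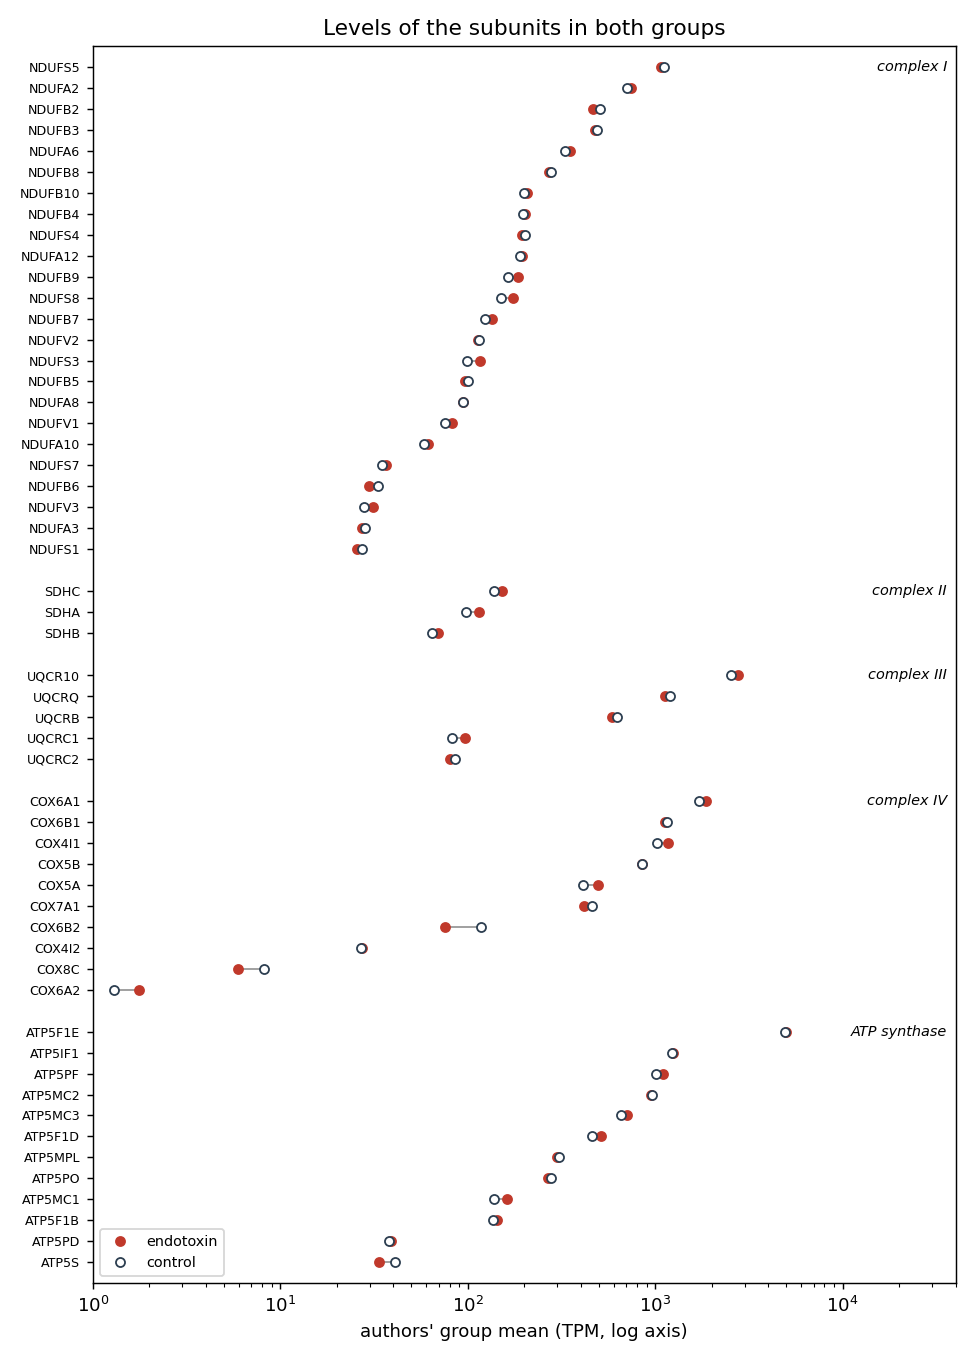
The authors' mean TPM of 54 of the 55 subunits on a log axis, in endotoxin glands (filled) and control glands (open), by complex and in falling order. Within complex IV the means over both groups run from 1.52 to 1788 TPM, while the paired points nearly coincide except for COX6B2, COX8C and COX6A2.

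Complex I oxidises NADH through 7 nuclear-encoded core subunits that carry the flavin, the iron-sulfur clusters and the quinone site, surrounded by accessory subunits. None of its 25 measured genes passed. The authors' deposited table put 23 above 0 by the count model and 15 by TPM, with a median log2 fold change of 0.13. All 7 core subunits were above 0 by the count model, and 5 of them by TPM. NDUFS3, a core subunit of the arm that meets the quinone, had 117 TPM in endotoxin glands against 98.7 TPM in control glands, a log2 fold change of 0.33 ± 0.16 (SE; adjusted p = 0.343) from the authors' deposited table. NDUFS8, which holds a pair of iron-sulfur clusters, had 174 TPM against 149.5 TPM in controls, at 0.32 ± 0.17 (adjusted p = 0.439) from the authors' deposited table. NDUFV1, which binds NADH and the flavin, had 82.3 TPM against 75.3 TPM in controls, at 0.22 ± 0.19 (adjusted p = 0.728) in the same table.

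Other core subunits lay closer to 0. NDUFS7 had 36.5 TPM with endotoxin and 34.7 TPM in controls in the authors' deposited table, at 0.18 ± 0.20. For NDUFV2 and NDUFS1, both carriers of iron-sulfur clusters in the NADH arm, the measures differed in sign. NDUFV2 had 113.5 TPM with endotoxin and 114.4 TPM in controls (0.085 ± 0.15) and NDUFS1 25.7 TPM with endotoxin and 27.2 TPM in controls (0.036 ± 0.14) in the authors' deposited table. NDUFS1, the largest iron-sulfur protein of the complex, had the lowest mean of the 25.

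Among the accessory subunits of complex I, NDUFV3 had 31.1 TPM in endotoxin glands against 28.0 TPM in control glands, at 0.27 ± 0.12 (SE; adjusted p = 0.253) from the authors' deposited table. Its SE was the smallest of all 55. The 6 measured NDUFA subunits lay between 0.058 and 0.18 by the count model. The 9 measured NDUFB subunits, which sit in the proton-pumping membrane arm, lay between -0.036 and 0.26, with 7 above 0 by the count model but 4 by TPM. The lowest values among the measured nuclear subunits of the complex were those of NDUFB6 and NDUFB2. NDUFB6 had 29.9 TPM against 33.3 TPM in controls (-0.036 ± 0.19). NDUFB2 had 464 TPM against 509 TPM in controls (-0.028 ± 0.18) in the authors' deposited table. NDUFS5 stood next at 0.034 ± 0.18 and had the highest mean of these nuclear subunits. It had 1072 TPM with endotoxin and 1118 TPM in controls, or 41.7 and 41.1 times that of NDUFS1.

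Complex II has 4 subunits, all of nuclear origin, of which 3 were measured. Each was above 0 by both measures, and none passed. SDHA, the flavoprotein that oxidises succinate, had 114.5 TPM in endotoxin glands against 97.8 TPM in control glands, at 0.33 ± 0.14 (SE; adjusted p = 0.239) from the authors' deposited table. SDHC, one of the membrane anchors, had 152 TPM against 138 TPM in controls, at 0.23 ± 0.15 (adjusted p = 0.552) there. SDHB, the iron-sulfur subunit, had 69.7 TPM against 64.2 TPM in controls, at 0.23 ± 0.15 (adjusted p = 0.564) from the authors' deposited table. The median of 0.23 was the highest of the 5 complexes, over only 3 genes whose intervals overlap those of every other complex. Whether it differs from the others was not tested.

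Complex III, the cytochrome bc1 complex, had 5 measured subunits within the name pattern. Their median was 0.019, and -0.091 by TPM. CYC1 and the mitochondrially encoded CYTB have rows but lie outside the pattern, and are not in this median. UQCRC1 and UQCRC2, the paired core proteins on the matrix side, stood apart in value. UQCRC1 had 96.1 TPM with endotoxin and 82.1 TPM in controls, at 0.32 ± 0.18 (SE; adjusted p = 0.457) from the authors' deposited table. UQCRC2 had 80.1 TPM with endotoxin and 85.4 TPM in controls, at 0.019 ± 0.15 (adjusted p = 0.981). UQCRC2 was thus at 0.834 times the level of UQCRC1 with endotoxin and 1.04 times in controls, a difference that was not tested since the SEs of genes from the same libraries are not independent.

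The small subunits of complex III were more abundant than its core proteins. UQCR10 had 2749 TPM in endotoxin glands against 2546 TPM in control glands, at 0.23 ± 0.20 (adjusted p = 0.728) from the authors' deposited table. UQCRQ, named as a ubiquinone-binding protein, had 1132 TPM against 1206 TPM in controls (0.0065 ± 0.20), and UQCRB 589 TPM against 629 TPM in controls (-0.012 ± 0.18), both with an adjusted p over 0.99. CYC1, the cytochrome c1 of this complex, is outside the name pattern. It had 206 TPM with endotoxin and 173 TPM in controls, at 0.34 ± 0.16 (adjusted p = 0.331) from the authors' deposited table.

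Complex IV, cytochrome c oxidase, swaps several of its nuclear subunits for tissue-specific isoforms. The 5 measured genes of broad expression (COX4I1, COX5A, COX5B, COX6A1 and COX6B1) were all above 0 by the count model, between 0.071 and 0.33, and 4 of them by TPM. COX5A, a subunit on the matrix side, had 497.5 TPM in endotoxin glands against 414 TPM in control glands, at 0.33 ± 0.23 (SE; adjusted p = 0.612) from the authors' deposited table. COX4I1, the isoform through which ATP is known to restrain the enzyme, had 1169 TPM against 1027 TPM in controls, at 0.28 ± 0.21 (adjusted p = 0.642). COX6A1 was the most abundant of the measured nuclear subunits of the complex. It had 1856 TPM with endotoxin and 1721 TPM in controls (0.19 ± 0.18) in the authors' deposited table. COX5B had 852 TPM with endotoxin and 846 TPM in controls (0.098 ± 0.19), and COX6B1 1128 TPM with endotoxin and 1149 TPM in controls (0.071 ± 0.23).

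The largest SEs of all subunits belonged to tissue isoforms of complex IV, COX8C, COX6A2, COX6B2 and COX4I2, while that of COX7A1, another such isoform, was below the median SE of the 55, 0.18. COX6B2, known from testis, had 75.5 TPM in endotoxin glands against 117 TPM in control glands, at -0.45 ± 0.37 (adjusted p = 0.697) from the authors' deposited table. It stood at 6.69% of the level of COX6B1 with endotoxin and 10.2% in controls. COX7A1, known from heart and skeletal muscle, had 417 TPM with endotoxin and 457 TPM in controls (-0.023 ± 0.18) in the authors' deposited table. COX7A2 had no row under its symbol there to set it against. COX4I2, known from lung and from pericytes, had 27.3 TPM with endotoxin and 26.8 TPM in controls (0.17 ± 0.34), 2.34% and 2.61% of the level of COX4I1. COX8C had 5.95 TPM with endotoxin and 8.14 TPM in controls (-0.46 ± 1.0), and COX6A2, another isoform of striated muscle, 1.75 TPM with endotoxin and 1.29 TPM in controls (0.64 ± 0.98) in the authors' deposited table. COX6A2 and COX8C were the 2 subunits with a mean under 10 TPM. The 5 measured markers of striated muscle summed to 2.32 TPM with endotoxin and 2.93 TPM in controls.

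ATP synthase consists of a catalytic head in the matrix, a rotating shaft and c ring, and a peripheral stalk that holds the head still. Of its 12 measured genes 11 were above 0 by the count model and 8 by TPM, with a median of 0.14. ATP5F1B, the catalytic beta subunit, had 143 TPM in endotoxin glands against 137 TPM in control glands, at 0.17 ± 0.15 (SE; adjusted p = 0.748) from the authors' deposited table. ATP5F1D, the delta subunit of the shaft, had 512 TPM against 461 TPM in controls, at 0.26 ± 0.19 (adjusted p = 0.645). ATP5F1E, the small epsilon subunit of the shaft, had 4965 TPM with endotoxin and 4939 TPM in controls, at 0.14 ± 0.15 (adjusted p = 0.831) from the authors' deposited table. Its level was 34.8 times that of ATP5F1B with endotoxin and 36.0 times in controls.

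In mammals ATP5MC1, ATP5MC2 and ATP5MC3 encode the same mature c subunit behind different import signals. Their RNA summed to 1824 TPM with endotoxin and 1754 TPM in controls in the authors' deposited table, and the protein was not measured. ATP5MC1, the least abundant, had 162 TPM in endotoxin glands against 138 TPM in control glands, at 0.31 ± 0.21 (adjusted p = 0.607). ATP5MC3 had 708 TPM with endotoxin and 657 TPM in controls (0.19 ± 0.17), and ATP5MC2 954 TPM with endotoxin and 959 TPM in controls (0.10 ± 0.24), in the authors' deposited table. ATP5MC1 stood at 17.0% of ATP5MC2 with endotoxin and 14.4% in controls.

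The peripheral stalk was represented by ATP5PF, ATP5PD and ATP5PO. ATP5PF had 1102 TPM in endotoxin glands against 1004 TPM in control glands, at 0.23 ± 0.14 (adjusted p = 0.545) from the authors' deposited table. ATP5PD had 38.8 TPM with endotoxin and 38.1 TPM in controls (0.14 ± 0.18), and ATP5PO, which ties the stalk to the head, 269 TPM with endotoxin and 279 TPM in controls (0.055 ± 0.21). ATP5IF1, which blocks the enzyme from running backwards and consuming ATP, had 1251 TPM with endotoxin and 1235 TPM in controls (0.094 ± 0.19) in the authors' deposited table. That was 8.76 times the level of ATP5F1B with endotoxin and 9.01 times in controls. ATP5MPL, a small proteolipid of the membrane part, had 299 TPM with endotoxin and 307 TPM in controls (0.054 ± 0.19). ATP5S, an associated protein that is no structural subunit of the enzyme, had 33.5 TPM with endotoxin and 41.0 TPM in controls, at -0.17 ± 0.21 (adjusted p = 0.865) from the authors' deposited table, and had the lowest mean of the 12.

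The sign of many of these values depended on the measure. By TPM, the authors' deposited table had 34 of the 55 subunits above 0, against 48 by the count model, and 14 subunits changed sign between these measures. The median over the 55 was 0.14 by the count model and 0.029 by TPM. ATP5PO and ATP5MPL are among the 14. The whole table is shifted in this way: rows of at least 1 TPM had a median of 0.011 by the count model, and by TPM one of -0.10. Set against these medians both measures gave like counts, with 47 subunits above the median by the count model and 49 by TPM. Against rows of at least 10 TPM, whose median level is also below that of the subunits, the counts were 38 and 43. By complex, 23 of 25, 3 of 3, 3 of 5, 7 of 10 and 11 of 12 lay above the median of rows of at least 1 TPM by the count model, in the order I to IV and ATP synthase. Against rows of at least 10 TPM they were 17 of 25, 3 of 3, 2 of 5, 7 of 10 and 9 of 12. By TPM, complex III had 5 of 5 above the median of rows of at least 1 TPM and 2 of 5 above that of rows of at least 10 TPM.

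**Figure D3:**
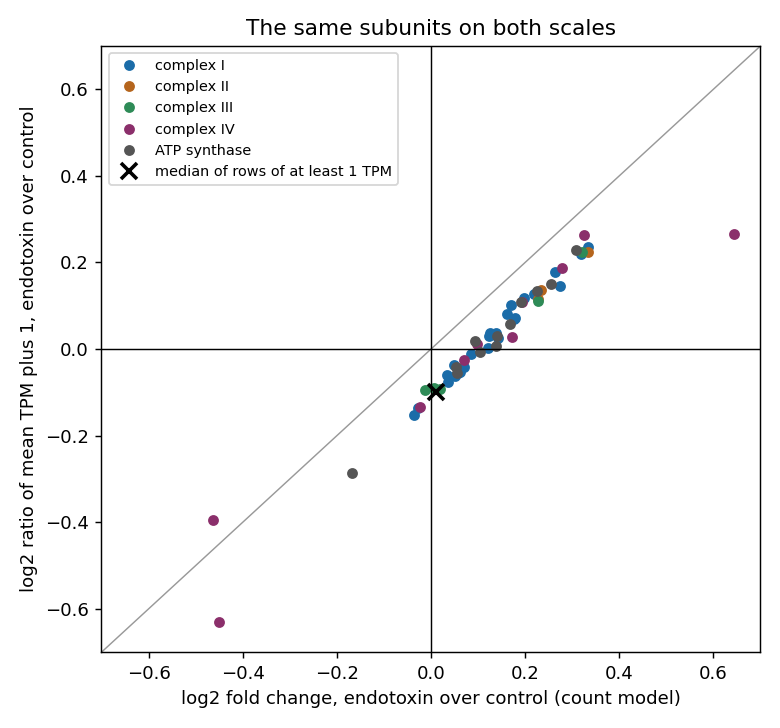
Each subunit's log2 fold change in the authors' count model (x axis) against its log2 ratio of group means, each plus 1 TPM (y axis), endotoxin over control, by complex, with the line of equality and the median of all rows of at least 1 TPM as a cross. Nearly all points lie below the line by about as much as the cross, and those at lower right change sign between the measures.

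The partners of these subunits outside the name pattern gave values of the same size. All 13 protein genes of the mitochondrial genome, which encode the core of complexes I, III, IV and ATP synthase, had a row, and none passed. They summed to 37901 TPM with endotoxin and 35405 TPM in controls in the authors' deposited table. That was more than the 55 nuclear subunits together, which are only part of the nuclear set. How ribosomal RNA was removed, which bears on levels set between the genomes, is not given in the sources used here. By the count model 11 were above 0, with a median of 0.13 against 0.14 for the nuclear subunits, and 9 were above 0 by TPM. ND3, a membrane subunit of complex I, had the highest fold change at 0.35 ± 0.22 (SE; adjusted p = 0.517), with 5260 TPM in endotoxin glands against 4296 TPM in control glands, in the authors' deposited table. ND5, a proton-pumping subunit, had the lowest at -0.20 ± 0.35 (adjusted p = 0.934), with 462 TPM against 575 TPM in controls.

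Assembly factors, the proteins that build the complexes without staying in them, were also without a call. Of 54 listed 38 had a row, 27 were above 0 by the count model and 21 by TPM, and the median was 0.14. The smallest adjusted p among them was that of TTC19, which maintains complex III, with 16.6 TPM in endotoxin glands against 14.1 TPM in control glands at 0.35 ± 0.11 (adjusted p = 0.0718) from the authors' deposited table. ATPAF2, an assembly factor of ATP synthase, had 25.9 TPM against 21.5 TPM in controls, at 0.37 ± 0.15 (adjusted p = 0.241).

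Regulators of mitochondrial biogenesis lay between 0.129 and 18.0 TPM over both groups and none of the 13 measured passed, with 6 above 0 by the count model and a median of -0.047. PPARGC1A, the coactivator best known for driving respiratory genes, was at 0.101 TPM in endotoxin glands and 0.156 TPM in control glands in the authors' deposited table (-0.58 ± 0.56). NRF1, a transcription factor of many respiratory chain promoters, had 7.39 TPM with endotoxin and 8.66 TPM in controls (-0.10 ± 0.17; adjusted p = 0.922) in the same table.

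A list of related carriers and subunits that the pattern leaves out held the single call among all the lists of the pathway. FDX1, the ferredoxin that feeds electrons to the steroid enzymes, rose to 1835 TPM in endotoxin glands, against 580 TPM in control glands, at 1.75 ± 0.39 (SE; adjusted p = 0.00181) from the authors' deposited table. All 8 measured genes of this list were above 0 by the count model and 7 by TPM. FDXR, which reduces FDX1, had 174 TPM with endotoxin and 111 TPM in controls, at 0.74 ± 0.26 (adjusted p = 0.116). NDUFA4L2, a paralog of a complex IV subunit that is known to be induced by low oxygen, had 218 TPM with endotoxin and 122 TPM in controls, at 0.996 ± 0.48 (adjusted p = 0.343) from the authors' deposited table.

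**Figure D4:**
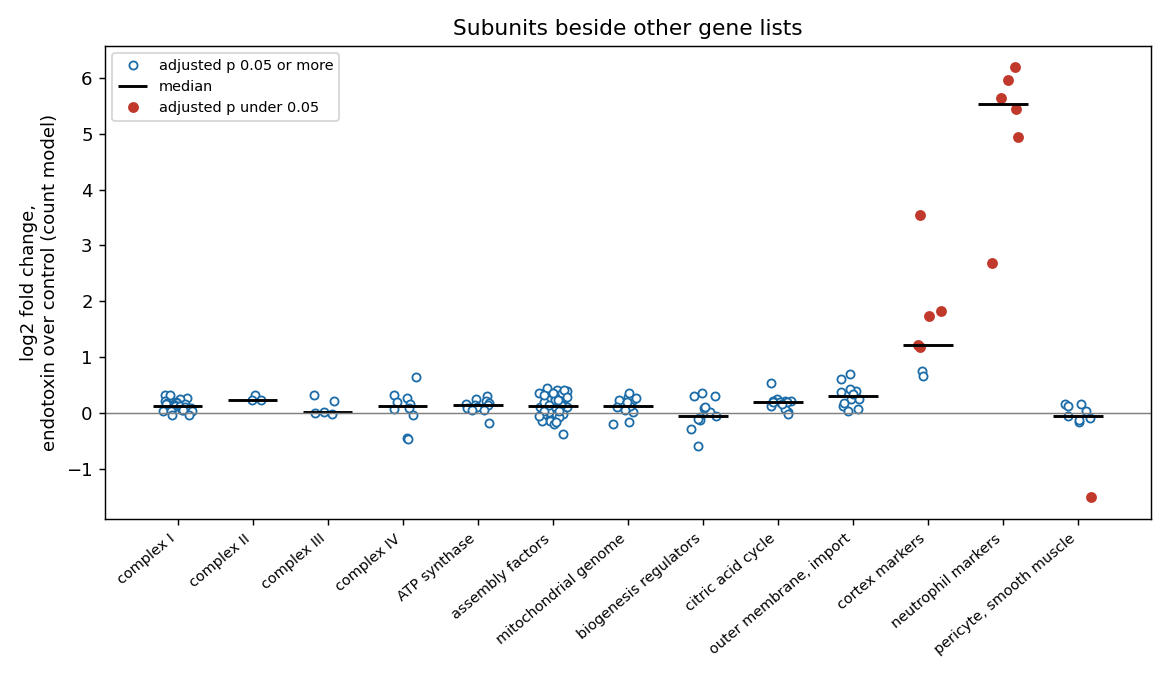
Log2 fold change (authors' count model, endotoxin over control) of each measured gene of the 5 complexes, of related lists and of 3 lists of cell type markers, with the median as a bar and genes past an adjusted p of 0.05 filled. No respiratory gene or assembly factor is filled, while 5 of 7 cortex markers and 6 of 6 neutrophil markers are.

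Some marker genes of cell types differed between the groups in the same glands, mostly those of the steroid-producing cortex and of neutrophils. Defining genes of the labelled tissue were abundant, both of the cortex (STAR at 1027 TPM with endotoxin and 481 TPM in controls) and of the medulla (TH at 1343 TPM with endotoxin and 1254 TPM in controls) in the authors' deposited table. Of 7 listed markers of the steroid-producing cortex 5 passed as higher and none as lower, and all 7 were above 0 by the count model. The list, FDX1 included, summed to 6378 TPM with endotoxin and 2543 TPM in controls. Of 6 measured neutrophil markers 6 rose, with a sum of 1914 TPM with endotoxin and 46.3 TPM in controls. Of 5 measured macrophage markers 1 passed as higher, MARCO, at 3.91 TPM with endotoxin and 0.437 TPM in controls. Of 5 erythroid markers 1 passed as higher, HBM, at 1.13 TPM with endotoxin and 0.445 TPM in controls. All 5 of each list were above 0 by the count model. Of 9 markers of pericytes and smooth muscle 1 passed as lower, RGS5. It had 69.9 TPM in endotoxin glands against 221 TPM in control glands in the authors' deposited table. None of the 5 measured endothelial, 4 chromaffin or 5 striated muscle markers passed, nor any of the 6 with a p in a joint list for adipose tissue, kidney and testis. The chromaffin list had values on both sides of 0: PNMT, the enzyme that makes adrenaline, had 1306 TPM with endotoxin and 329.5 TPM in controls (2.07 ± 0.73; adjusted p = 0.123), and CHGB, a protein of the secretory granules, 2116 TPM with endotoxin and 3193 TPM in controls (-0.43 ± 0.28; adjusted p = 0.559), both from the table the authors deposited. The joint list summed to 208 TPM with endotoxin and 268 TPM in controls, with the adipocyte markers ADIPOQ at 6.59 TPM with endotoxin and 25.0 TPM in controls (-2.06 ± 1.78) and FABP4 at 199 TPM with endotoxin and 241 TPM in controls (-0.42 ± 1.14). These are the means and SEs of the authors' deposited table. All lists of markers were drawn up with earlier results of these data known. In whole glands, fewer cells of a type and less RNA per cell cannot be told apart, and the part of cell composition in the values of the subunits was not tested.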

How the data were processed

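Per the submitters' processing notes, fastp 0.19.4, Salmon 0.9.1, DESeq2 and the build Oar_v3.1 were used; the notes give them no role. For the 10 libraries the authors deposited estimated counts and TPM by gene, with the same 20781 gene IDs, all with the cattle prefix of Ensembl, and no symbols; how sheep reads came to cattle IDs is not given in the sources used here, and only library totals and the check of direction were taken from them. The authors' deposited table of differential expression gives for each row, per the file headers, group means and a log2 column, then the standard error, the score, and the p-value before and after adjustment. The deposited means were read as TPM because each column sums to 1000000 after rounding, and the deposited score as a Wald score because the p-value is its two-sided normal p. The deposited log2 column is that of group B over group A after 1 TPM was added to each mean.

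From these, the fold change of the count model was computed as score times standard error, with a 95% normal interval, in Python 3.11.15 with pandas 2.3.3 and scipy 1.17.1. The call is the authors' adjusted p under 0.05, over all rows, with no filter on low values. In 80 rows both p-values are 1 and were treated as absent, leaving 19236. No count model was refitted, since no subunit can be found in the count table, and no gene set was tested. Steps were tested on simulated data. The alternatives were other log2 scales, minimum means, rows used for adjustment, centring, and libraries left out of the check of direction.

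The subunits and all lists were chosen with earlier results of these data known. Named with values were subunits with an adjusted p under 0.05 (none), the 3 highest and 3 lowest fold changes and the highest and lowest means of each complex, a list of catalytic, redox and core subunits that holds COX5B, paralogs, and from other lists any call and up to 2 further genes. ATP5PD, ATP5IF1, CYC1 and the markers STAR, TH, PNMT, CHGB, ADIPOQ, FABP4, MARCO, HBM and RGS5 were named outside this rule, after their values were seen. Of the 55 symbols 39 are in the sheep gene table of RefSeq (ARS-UI_Ramb_v3.0), which is not the build in the notes, so no coordinates are given. Sequences and a planned search of promoters for motifs are not given, as no sequence table was used here. One complex I subunit is counted in the totals but not reported here by name or drawn in the plots with gene labels.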

Additional observations from a re-analysis of the deposited data

How the results depend on the processing

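The count of subunits called stayed at 0 with adjustment over rows of at least 1 TPM, over rows with a symbol, and with the lower-mean row (every subunit has 1 row). The lower-mean row and a minimum of 1 TPM could not change any median, since each subunit has 1 row and at least 1 TPM. A minimum of 10 TPM took out only COX6A2 and COX8C, of complex IV. The median over all subunits and those of complexes I, II, IV and ATP synthase kept their sign under each other alternative. With 1 added to the mean TPM they were smaller: 0.029 over all subunits (0.14 by the count model), 0.030 for complex I (0.13), 0.14 for complex II (0.23), 0.020 for complex IV (0.14) and 0.024 for ATP synthase (0.14). That of complex III turned to -0.091 on the scale of mean TPM plus 1 and to -0.091 with 0.1 added. With 1 and with 0.1 added to the mean TPM, 14 subunits turned below 0: ATP5MC2 (-0.0074 and -0.0074), ATP5MPL (-0.040 and -0.041), ATP5PO (-0.055 and -0.055), COX6B1 (-0.026 and -0.026), NDUFA3 (-0.055 and -0.056), NDUFB3 (-0.036 and -0.036), NDUFB5 (-0.062 and -0.062), NDUFB8 (-0.041 and -0.042), NDUFS1 (-0.076 and -0.078), NDUFS4 (-0.053 and -0.054), NDUFS5 (-0.059 and -0.059), NDUFV2 (-0.011 and -0.011), UQCRC2 (-0.092 and -0.093) and UQCRQ (-0.091 and -0.091). UQCRQ also turned, to -0.0046, after subtraction of the median of all rows of at least 1 TPM. The whole table moves down on the TPM scale, and no cause was tested. In the TPM table with labels, 84.2% of changes of at least 8-fold were higher with endotoxin, and 76.2% to 94.1% when 1 library was left out.

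No paired analysis was possible because the subunits have group means and no value for each library, so leaving out a library could not be tried on them either. Without values for each library the spread behind an SE cannot be seen, and an unequal library would not show. The SE ranged from 0.12 to 1.0, widest for the 2 subunits under 10 TPM.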

Other observations

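Other mitochondrial genes, listed to set the respiratory chain beside the rest of the organelle, also had mostly positive fold changes without a call. All 12 measured genes of the outer membrane, protein import and inner membrane scaffold were above 0 by the count model and 10 by TPM, with a median log2 fold change of 0.30 in the authors' deposited table. TOMM40, the channel through which proteins enter mitochondria, had 64.4 TPM in endotoxin glands against 42.5 TPM in control glands, at 0.69 ± 0.24 (SE; adjusted p = 0.123). TIMM50, a receptor of the inner membrane translocase, had 59.0 TPM against 41.6 TPM in controls, at 0.60 ± 0.19 (adjusted p = 0.0762) from the authors' deposited table. At an unadjusted p under 0.05, 6 of the 12 were higher and 0 lower, against 3 higher and 0 lower of the 55 subunits. Of all rows with a p-value 7.58% were higher and 5.35% lower at that threshold. The list was chosen with earlier results of these data known.

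Of 13 measured citric acid cycle genes 12 were above 0 by the count model and 10 by TPM, with a median of 0.20, and none passed. OGDH, the 2-oxoglutarate dehydrogenase, had 42.4 TPM in endotoxin glands against 31.3 TPM in control glands, at 0.55 ± 0.21 (adjusted p = 0.185) from the authors' deposited table. CS, citrate synthase, had 39.9 TPM with endotoxin and 36.9 TPM in controls, at 0.22 ± 0.17 (adjusted p = 0.68). The difference between these lists and the subunits was not tested.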
